A study of Mus musculus with 4 samples.

Results

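The 7 genes described here encode the subunits of the NMDA receptor: *Grin1*, *Grin2a* to *Grin2d*, *Grin3a* and *Grin3b*. They were chosen by symbol and not by a rule on their measured values, though earlier results of these data were known. The symbols were matched to Ensembl gene identifiers. All 7 were among the 26328 genes listed in at least 1 sample, and all 7 passed the filter on low values that left 18436 genes for testing. *Grin2d* differed most between the groups. Its mean level was 1.40 times higher in the knock-in samples, and it passed the threshold of a test on reads but not that of the main test on the deposited values. The other 6 subunits passed neither test.

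The samples were hippocampi of 2 wild type (WT) and 2 *Lsd1* knock-in (KI) mice, all male and of the C57BL/6 strain. The KI mice carry LSD1, a histone demethylase encoded by *Kdm1a*, with the serine that PKCα phosphorylates replaced by alanine. The mice used for behaviour in the same study were littermates aged 8 to 15 weeks, and the age of the mice sequenced was not given in the sources used here. Poly(A) RNA was sequenced, and the comparison of KI with WT asks how hippocampal gene expression differs when LSD1 cannot be phosphorylated at this site.

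NMDA receptors are glutamate-gated channels that pass calcium when glutamate and a co-agonist, glycine or D-serine, are bound while the membrane is depolarised. Each receptor is a tetramer of obligatory GluN1 subunits, which bind the co-agonist, with GluN2 subunits, which bind glutamate and set the kinetics, or with GluN3 subunits, which bind glycine and lower calcium permeability. In the hippocampus these receptors are best known for the induction of synaptic plasticity, with GluN2A and GluN2B in principal neurons and GluN2D mainly in interneurons.

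Levels are given as RPKM, the reads on a gene per kb of its counted exons, scaled by the sample's total of mapped reads. The values held 13414957 and 8827967 mapped reads in WT replicates 1 and 2, and 14381252 and 14949756 in KI replicates 1 and 2, so that the second WT sample was the least deeply sequenced. *Kdm1a* had 11.6 and 11.2 RPKM in WT and 11 and 11.2 RPKM in KI, values that do not test the genotype, since the knock-in changes a codon and not the gene's dosage. Of 8 markers of hippocampal pyramidal and granule neurons, *Neurod6* made up the largest part of the summed level. The 8 summed to 265 to 266 RPKM in WT and 255 to 273 RPKM in KI. Among them, the dentate granule cell markers *Prox1* (17.3 and 16.9 RPKM in WT, 10.2 and 13.1 RPKM in KI) and *Dsp* (10.01 and 9.73 RPKM in WT, 5.03 and 7.46 RPKM in KI) were lower in both KI samples, and *Wfs1*, a CA1 marker, was 28.6 RPKM in KI replicate 1 and 50.9 RPKM in KI replicate 2. In bulk tissue, fewer cells of a type and less RNA per cell cannot be told apart. The labels call the samples replicates without saying more of how each was taken, so p-values measure the spread between these samples only.

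The promoters of the obligatory subunit and of the subunit that differed most are shown first, because they differ in their make-up. Each is the 250 bases before the RefSeq start of the gene (GRCm38.p6), read 5′ to 3′ on the minus strand, at chr2:25319188-25319437 for *Grin1* and chr7:45866682-45866931 for *Grin2d*. Capitals mark the E-box CACGTG, the letters bound by the CLOCK and MYC families, which read the same on both strands. The *Grin2d* window lies inside the span of the gene in GENCODE M21, which starts further upstream, at base 45878378. It is therefore a promoter by the RefSeq start and does not lie before the first GENCODE start. The start of each transcript is not given here.
Grin1: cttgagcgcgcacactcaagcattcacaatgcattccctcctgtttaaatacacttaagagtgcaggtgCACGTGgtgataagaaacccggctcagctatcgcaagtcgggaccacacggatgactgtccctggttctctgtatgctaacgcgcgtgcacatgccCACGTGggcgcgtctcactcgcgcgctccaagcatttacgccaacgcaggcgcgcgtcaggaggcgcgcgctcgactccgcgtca
Grin2d: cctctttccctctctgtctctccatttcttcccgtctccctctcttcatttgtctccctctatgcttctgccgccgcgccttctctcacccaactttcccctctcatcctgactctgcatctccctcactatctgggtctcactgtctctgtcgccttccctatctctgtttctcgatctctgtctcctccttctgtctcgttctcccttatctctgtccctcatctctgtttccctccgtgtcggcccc
The *Grin1* window held the E-box at 2 places, and 6.02% of 32851 mouse promoters of this length held it at least once. The *Grin2d* window held no match to it, nor on either strand to the GC box GGGCGG (32.7% of promoters) or to the letters TTCAGCACC of the REST motif (0.301%). It was instead rich in pyrimidines: 82.8% of its bases were C or T, against 52.4% in *Grin1*, and 99.97% of promoters held less. Of the other promoters in the table, *Grin2c* held 3 GC boxes and *Grin3b* no match. A match is a description of letters, and binding was not measured here.

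The subunit genes spanned a wide range of levels in RPKM, and their order was the same in the means of both groups. *Grin1* stood highest, followed by *Grin2b*, *Grin2c*, *Grin2d*, *Grin3a*, *Grin2a* and *Grin3b*. In neither group did the samples of any neighbours in this order overlap. The closest neighbours were *Grin2d* and *Grin3a*, whose mean RPKM differed 1.07 times in WT and 1.44 times in KI. With the same reads divided by the longest annotated transcript in place of all counted exons, the mean RPKM over the 4 samples was 4.72 for *Grin2d* and 5.70 for *Grin3a*, so that this pair changed places. On that scale *Grin2a* (0.550) and *Grin3b* (0.670) changed places too, but this swap is not an alternative order. The longest *Grin2a* transcript has 14634 bases while reads were counted over 5296 bases only, which lowers the 0.550 by construction. The order of *Grin2a* also rests on its gene model: its reads were counted over 5296 bases, which is 29.5% of its 17933 exonic bases in GENCODE M21, where the last exon of the longest transcript alone has 11729 bases. The part of this in its low RPKM was not tested.

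**Figure D1:**
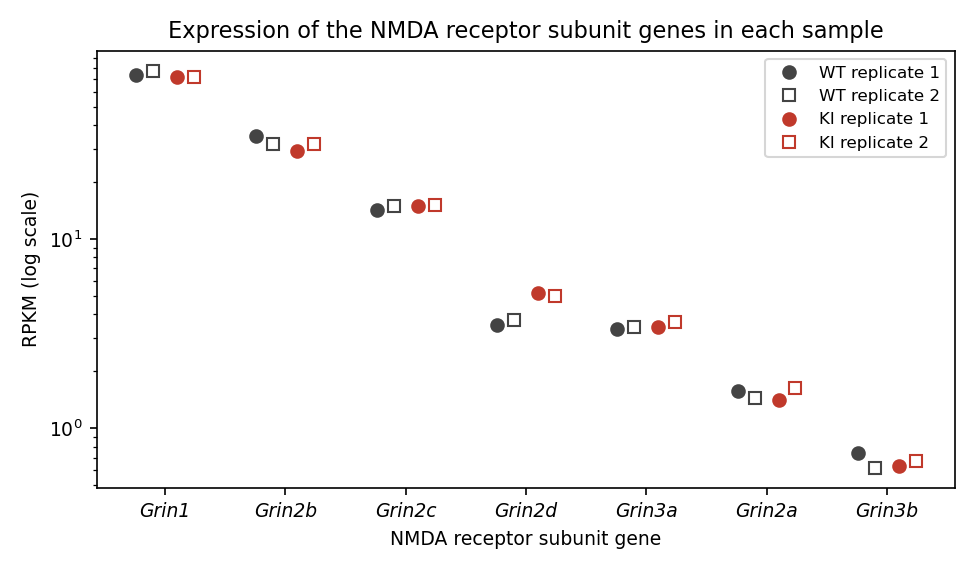
RPKM on a log axis for each NMDA receptor subunit gene, ordered by mean level, with 1 point per sample (WT grey, KI red; filled, replicate 1; open, replicate 2). *Grin2d* is the gene at which both KI points, 5.22 and 4.99, stand apart above both WT points, 3.52 and 3.75.

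Between genotypes, none of the 7 subunits passed the main test, limma on log2(RPKM + 1) with Benjamini-Hochberg adjustment over all genes tested, with both an adjusted p under 0.1 and a 1.2-fold or larger change required. The test called 0.0% of all genes. At an unadjusted p under 0.05, it held 1 of the 7 (*Grin2d*, higher), beside 6.3% of all genes higher and 3.33% lower. A second fit, chosen after the data were seen, was limma with voom weights on the reads worked out from the RPKM steps. It called 1 of the 7 higher and 0 lower, beside 1.14% of all genes higher and 0.363% lower. By their values alone, 1 subunit had both KI samples above the WT range, 2 had both below it and 4 overlapped. The 3 of 7 that did not overlap were a share near that of all genes, 42.2%. The median log2 fold change of the 7 was 0.00, beside 0.01 over all genes tested.

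*Grin1* (ENSMUSG00000026959; chr2:25291181-25319187, minus strand) encodes GluN1, without which no functional receptor forms. It was at 73.2 and 77.7 RPKM in WT and at 71.5 and 71.9 RPKM in KI. Both KI samples were below both WT samples, by a margin smaller than the gap between the WT samples. WT averaged 75.4 ± 3.16 RPKM and KI 71.7 ± 0.287 RPKM (SD, n = 2 per genotype), with a log2 fold change of -0.07 (SE 0.05; limma, adjusted p = 0.687). With 9524, 6650, 9972 and 10425 reads in WT 1, WT 2, KI 1 and KI 2, counting error was small. The ratio of reads per mapped read in KI to that in WT was 0.956 (exact 95% counting interval 0.937 to 0.976), and the WT samples differed by as much between themselves, 1.06 (1.03 to 1.09). The antisense gene *Grin1os* shares 1307 exonic bases with *Grin1*, 13.5% of its exons, and was at 96.8 and 102 RPKM in WT and 97.1 and 99.1 RPKM in KI. The strand setting of the counting was not given in the sources used here, so reads of the pair cannot be told apart where they overlap.

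Of the GluN2 subunits, *Grin2b* (ENSMUSG00000030209; chr6:135713233-136173511, minus strand) had the highest level. GluN2B carries the long cytoplasmic tail that binds CaMKII and gives slowly decaying currents. Its level was 35.2 and 31.8 RPKM in WT and 29.1 and 31.6 RPKM in KI. WT replicate 2 and KI replicate 2 were nearly level, and the groups stood apart only by the other sample of each. The means were 33.5 ± 2.41 and 30.3 ± 1.83 RPKM, a log2 fold change of -0.14 (SE 0.08; limma, adjusted p = 0.608). The KI to WT ratio of reads was 0.897 (0.879 to 0.914), while the ratio within WT was 0.903 (0.877 to 0.931) and that within KI 1.09 (1.06 to 1.12). The difference between genotypes was thus of about the size of that between the WT replicates. With voom the adjusted p was 0.243; without KI replicate 2 it was 0.000778 at a log2 fold change of -0.21, short of 1.2-fold.

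*Grin2a* (ENSMUSG00000059003; chr16:9567898-9995560, minus strand) encodes GluN2A, which joins receptors as synapses mature and gives fast currents. It was at 1.58 and 1.45 RPKM in WT and 1.42 and 1.63 RPKM in KI. The KI samples lay on either side of the WT samples. The means were 1.52 ± 0.0863 and 1.52 ± 0.149 RPKM, and the log2 fold change was 0.00, with a 95% interval of -0.29 to 0.29 (limma, adjusted p = 0.994). Taken as the smallest whole numbers that give its RPKM, only 68 to 129 reads stood behind each value. The sign of the difference turned with voom, with other scalings and with samples left out. The ratio of *Grin2b* to *Grin2a* RPKM, the change in GluN2 make-up best known from development, was 22.3 and 21.9 in WT and 20.5 and 19.4 in KI. It was lower in both KI samples (two-sided exact permutation test, p = 0.33, the smallest that 2 samples against 2 can give). By the same smallest whole numbers, reads of *Grin2a* were counted over 29.5% of its exonic bases in GENCODE M21, and those of *Grin2b* over 99.7%. The size of the ratio rests on these gene models.

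*Grin2c* (ENSMUSG00000020734; chr11:115249169-115267243, minus strand) encodes GluN2C, a subunit with weak magnesium block that is best known from cerebellar granule cells and is also found in astrocytes. It was at 14.2 and 15 RPKM in WT and at 14.9 and 15.2 RPKM in KI. The groups overlapped within a narrow range, and the log2 fold change was 0.04 (95% interval -0.11 to 0.19; limma, adjusted p = 0.860). Markers of the cell types known for it were checked in the same samples. Of 4 cerebellar granule cell markers, *Gabra6* was listed in no sample, *Cbln3* was at 0.0425 to 0.192 RPKM, *Cbln1* was higher in KI (1.28 and 0.777 RPKM in WT, 2.00 and 3.53 RPKM in KI) and *Neurod1* lower (9.81 and 10.3 RPKM in WT, 7.90 and 9.09 RPKM in KI). Voom called 1 of the 2 cerebellar markers tested, *Cbln1*, higher and 0 lower, beside 1.14% of all genes higher. The 6 astrocyte markers summed to 429 to 438 RPKM in WT and 442 to 447 RPKM in KI.

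*Grin2d* (ENSMUSG00000002771; chr7:45831883-45878378, minus strand) encodes GluN2D, which gives the slowest currents of the family, is weakly blocked by magnesium and is abundant in the developing brain. Its level was 3.52 RPKM in WT replicate 1, 3.75 RPKM in WT replicate 2, 5.22 RPKM in KI replicate 1 and 4.99 RPKM in KI replicate 2. Both KI samples were well above both WT samples, and the replicates of each group lay close together. WT averaged 3.64 ± 0.160 RPKM and KI 5.10 ± 0.165 RPKM (SD, n = 2 per genotype), so the gap between the groups was several times the spread within either. The log2 fold change on log2(RPKM + 1) was 0.40 (SE 0.08; 95% interval 0.19 to 0.61), with an unadjusted p of 0.00508 and an adjusted p of 0.360 by limma. With voom, on the log2 scale of reads, it was 0.50 (95% interval 0.29 to 0.70) with an adjusted p of 0.0180, past the threshold. Voom scaled the reads by their sum over all genes of a sample, in place of its mapped reads. The reads were counted over 5862 bases, 88.0% of the exonic bases of *Grin2d* in GENCODE M21, and the antisense gene *Gm45441*, which shares 9.66% of those exonic bases, was listed in no sample.

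The reads behind *Grin2d* were 277 and 194 in WT and 440 and 437 in KI, of which the smaller WT count came from the less deeply sequenced sample. The KI to WT ratio per mapped read was 1.41 (exact 95% counting interval 1.26 to 1.58). The ratio within WT was 1.06 (0.881 to 1.28) and that within KI was 0.955 (0.835 to 1.09), both with 1 inside their interval. The interval between genotypes lay above that within KI and met that within WT between 1.26 and 1.28.

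**Figure D2:**
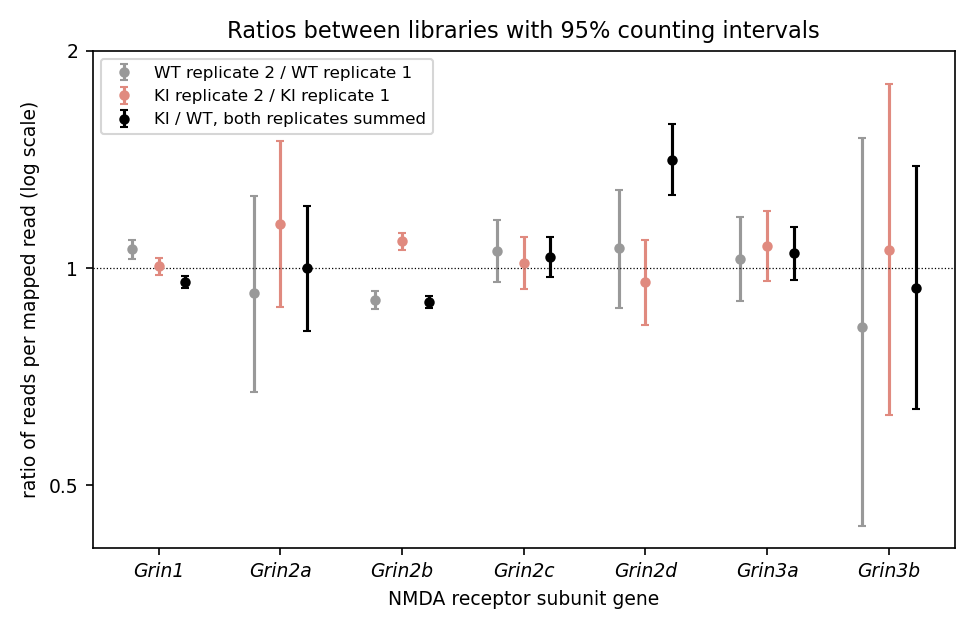
Ratio of reads per mapped read on a log axis for each subunit gene: WT replicate 2 over WT replicate 1 (grey), KI replicate 2 over KI replicate 1 (pink) and the summed KI over the summed WT samples (black), with exact 95% counting intervals. *Grin2d* has the black point farthest from 1, at 1.41, while for *Grin2b* the black point at 0.897 lies level with the grey one at 0.903.

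The direction of the *Grin2d* difference held in all 21 other settings tried, with log2 fold changes of 0.36 to 0.53. In part this was fixed in advance. By limma on log RPKM, another filter, trend, block or fold minimum leaves the fold change as it was. With both KI values above both WT values, leaving out 1 sample could not turn the sign. The call itself changed. Its adjusted p was 0.249 to 0.689 in 13 other settings of limma on log RPKM, and of 8 voom settings 5 called it. Voom without WT replicate 1 gave an adjusted p of 0.807 and without WT replicate 2 one of 0.550, and neither called it. Without KI replicate 1 the adjusted p was 0.00462 and without KI replicate 2 it was 0.000280, at log2 fold changes of 0.46 and 0.53. At a minimum of 1.5-fold it was not called, because the change was smaller than that.

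**Figure D3:**
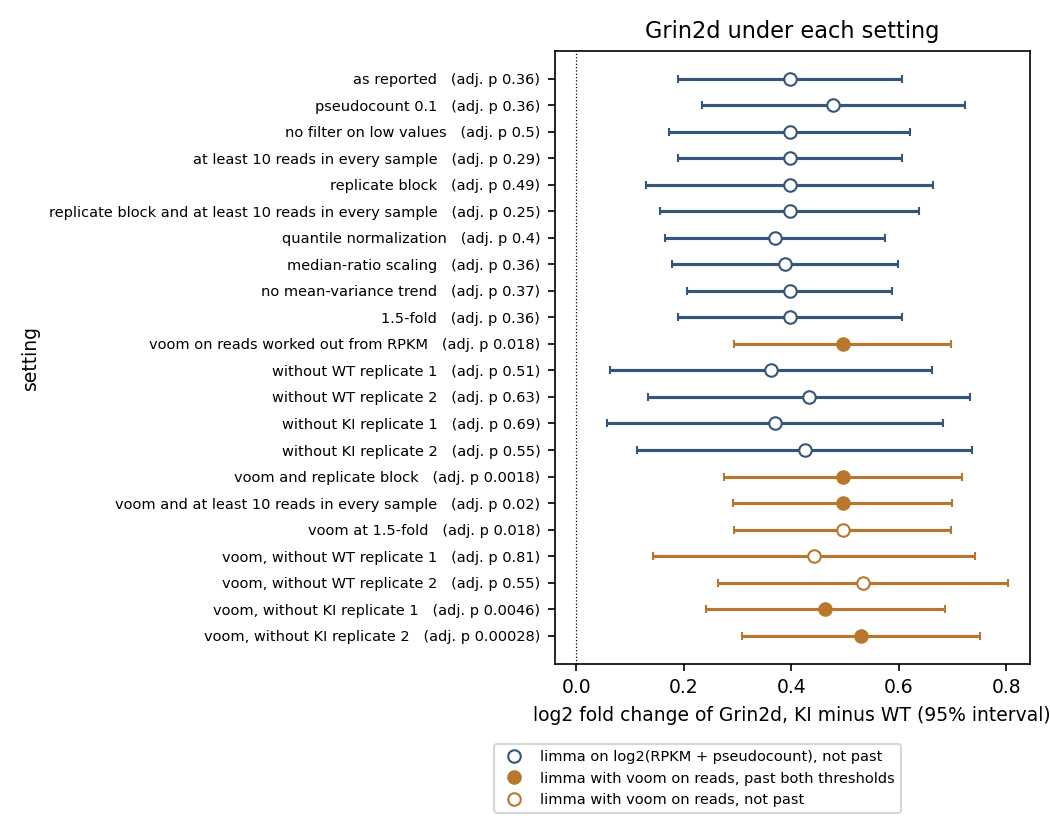
Log2 fold change of *Grin2d*, KI minus WT, with its 95% interval under each setting, in blue for limma on log RPKM and in brown for limma with voom on reads. Filled points passed both the adjusted p of 0.1 and the fold minimum. All points lie to the right of 0, between 0.36 and 0.53, and 5 are filled.

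The make-up of the GluN2 RNA was read within each sample, where depth plays no part in the shares. *Grin2d* made up 6.46% and 7.21% of the summed RPKM of the GluN2 genes in WT and 10.3% and 9.34% in KI, or 6.83% ± 0.528 against 9.82% ± 0.691 (SD, n = 2 each). The difference was 2.99 percentage points (two-sided exact permutation test, p = 0.33, the smallest possible). The share of *Grin2b* was 64.6% and 61.2% in WT and 57.4% and 59.2% in KI, lower in both KI samples. The shares of *Grin2c* (26.1% and 28.8% in WT, 29.5% and 28.4% in KI) and *Grin2a* (2.89% and 2.80% in WT, 2.80% and 3.05% in KI) overlapped. The small share of *Grin2a* rests on a count over 5296 bases, or a whole multiple of them, where GENCODE M21 has 17933 exonic bases. The summed GluN2 level was 54.5 and 52.0 RPKM in WT and 50.6 and 53.4 RPKM in KI, and its ratio to *Grin1* was 0.745 and 0.670 in WT and 0.708 and 0.743 in KI. Neither sum nor ratio separated the groups (exact permutation p = 0.667 and 1.0). Summed over all 7 genes, the level was 131.8 and 133.7 RPKM in WT and 126.2 and 129.7 RPKM in KI.

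**Figure D4:**
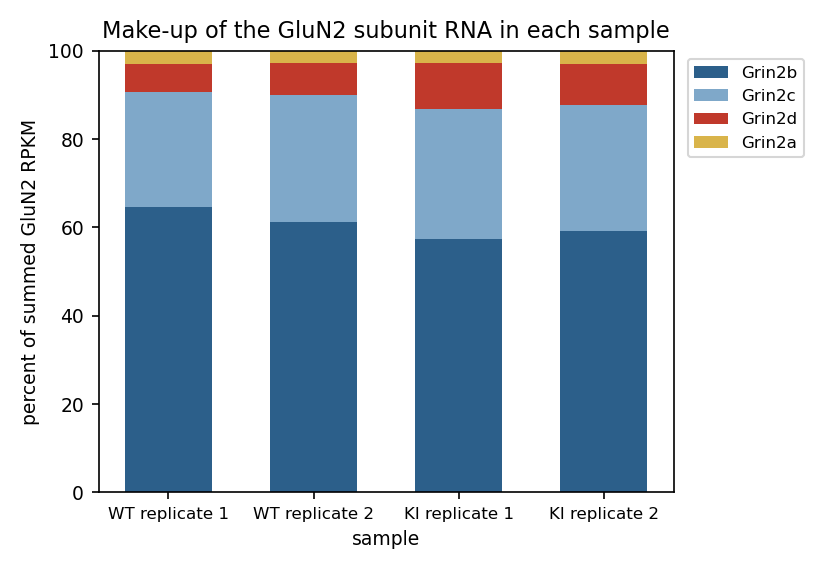
Stacked bars of the percent that each GluN2 gene contributes to the summed GluN2 RPKM of a sample. The red *Grin2d* segment is 6.46% and 7.21% of the WT bars but 10.3% and 9.34% of the KI bars, and *Grin2b* fills the largest part of each bar, from 57.4% to 64.6%.

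*Grin3a* (ENSMUSG00000039579; chr4:49661611-49845744, minus strand) encodes GluN3A, which limits the maturation of synapses. It was at 3.35 and 3.45 RPKM in WT and at 3.43 and 3.67 RPKM in KI. The groups overlapped, with a log2 fold change of 0.05 (95% interval -0.17 to 0.27; limma, adjusted p = 0.895). *Grin3b* (ENSMUSG00000035745; chr10:79970715-79977190, plus strand) encodes GluN3B, which is best known from motor neurons. Over the counted exons it was the lowest subunit, at 0.746 and 0.619 RPKM in WT and 0.633 and 0.670 RPKM in KI, from 18 to 33 reads a sample. Its log2 fold change was -0.03 (95% interval -0.35 to 0.30; limma, adjusted p = 0.970), and changes within this interval could not be told apart with 2 samples per group. *Tmem259* on the opposite strand covers 32.1% of the *Grin3b* exons and was at 19.9 to 22.1 RPKM, and reads of the pair cannot be told apart where they overlap.

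Interneurons are the hippocampal cells best known for GluN2D, and their markers were therefore read beside *Grin2d*. Of 7 interneuron markers tested, 3 were higher in both KI samples, 1 was lower and 3 overlapped, beside 24.0% of all genes higher and 18.1% lower. Their sum was 355 to 362 RPKM in WT and 339 to 359 RPKM in KI. *Pvalb* was at 15.5 and 16.0 RPKM in WT and 21.2 and 19.1 RPKM in KI, and *Vip* at 8.49 and 8.23 RPKM in WT and 11.5 and 9.59 RPKM in KI. The third that was higher, *Slc32a1*, was at 22.3 and 22.0 RPKM in WT and 25.0 and 23.9 RPKM in KI. *Sst* was at 243 and 254 RPKM in WT and 233 and 226 RPKM in KI, while *Gad1*, *Gad2* and *Lhx6* overlapped. *Sst* made up the largest part of the sum, so the sum mostly follows this 1 marker. None of the 7 passed either test.

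Some markers of tissue next to the hippocampus were also higher in both KI samples. Of all genes tested, 24.0% were higher in both KI samples and 18.1% lower. Of 6 neocortex markers, 4 were higher in both KI samples and 2 overlapped, and their sum was 48.2 to 50.8 RPKM in WT and 53.5 to 55.4 RPKM in KI. The neocortex marker *Lamp5* was at 11.4 and 12.1 RPKM in WT and 15 and 14.0 RPKM in KI. Voom called 2 of the 6 neocortex markers higher, *Lamp5* among them, and 0 lower, beside 1.14% of all genes higher. Of 7 striatum markers, 4 were higher, 2 lower and 1 overlapped, and voom called 1 higher and 0 lower. Their sum was 27.4 to 28.2 RPKM in WT and 31.3 to 32.0 RPKM in KI. The 6 thalamus markers summed to 17.8 to 18.1 RPKM in WT and 18.7 to 23.3 RPKM in KI. Of the 4 tested, *Prkcd* was higher in both KI samples (7.88 and 6.48 RPKM in WT, 12.4 and 9.07 RPKM in KI) and called by voom, *Lhx9* was lower (2.93 and 2.99 RPKM in WT, 2.22 and 2.52 RPKM in KI) and 2 overlapped. *Tcf7l2* was under the filter and lower in both KI samples, and the defining marker *Gbx2* was at 0 to 0.0328 RPKM. The 5 oligodendrocyte markers summed to 740 to 851 RPKM in WT and 712 to 945 RPKM in KI, and all 5 overlapped. The 5 microglia markers summed to 54.2 to 54.6 RPKM in WT and 52.8 to 57.4 RPKM in KI. Of these 5, 3 were higher in both KI samples, 1 was lower and 1 overlapped. The part of these differences, or of the lower *Prox1* and *Dsp*, in the *Grin2d* value was not tested. Of the 8 hippocampal neuron markers, voom called 2 lower and 0 higher, beside 0.363% of all genes lower and 1.14% higher. They were *Prox1* (log2 fold change -0.56, voom adjusted p = 0.0033) and *Dsp* (-0.69, voom adjusted p = 0.0062).

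The partners of the receptor were taken from 6 lists, and limma called 0 of their 67 tested genes. Voom called 1 of the 67, beside 1.5% of all genes tested. It was *Camk2d*, the delta isoform of CaMKII, at 2.03 and 1.82 RPKM in WT and at 2.41 and 3.42 RPKM in KI (log2 fold change 0.57, voom adjusted p = 0.0410). Of the 14 calcium signalling partners, 2 were higher in both KI samples, 6 lower and 6 overlapped, with a median log2 fold change of -0.03. The lowest was *Nos1*, the neuronal nitric oxide synthase tied to the receptor by PSD-95, at -0.21. Of the 13 genes that anchor and traffic the receptor, 1 was higher, 4 were lower and 8 overlapped (median -0.04), from -0.22 for *Lin7c* to 0.18 for *Lin7a*, which encode small scaffold proteins of one family.

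Of the 11 kinases and phosphatases that act on the subunits, 4 were higher in both KI samples, 3 lower and 4 overlapped, with a median log2 fold change of 0.08. They ranged from -0.09 for *Fyn*, a kinase of the GluN2 tails, to 0.19 for *Ptpn5*, which encodes the phosphatase STEP that opposes it. Of the 13 genes that make, move or degrade glycine and D-serine, 11 were tested (*Dao* and *Slc6a5* were under the filter). Among these, 2 were higher, 2 lower and 7 overlapped (median 0.03), from -0.20 for *Shmt2*, a mitochondrial enzyme that makes glycine from serine, to 0.17 for *Slc1a5*, a neutral amino acid transporter at 0.395 to 0.628 RPKM.

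Of the 7 surface partners, 1 was higher, 3 were lower and 3 overlapped (median -0.04), from -0.19 for *Neto1*, an auxiliary protein of NMDA and kainate receptors, to 0.09 for *Lrp8*, a reelin receptor. Of the 11 AMPA, kainate and delta receptor subunits, 1 was higher, 6 were lower and 4 overlapped (median -0.04), from -0.21 for *Grik2* to 0.11 for *Grik3*, both kainate receptor subunits. The median over all genes tested was 0.01, and 24.0% of all genes were higher in both KI samples and 18.1% lower.

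**Figure D5:**
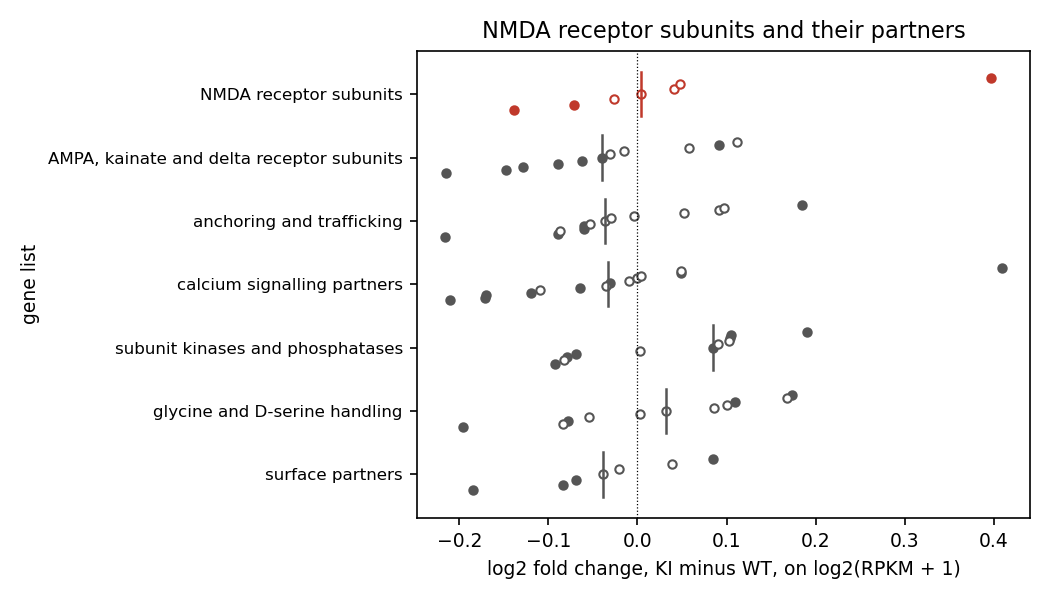
Log2 fold change, KI minus WT, on log2(RPKM + 1) for each tested gene of the NMDA receptor subunits (red) and of 6 lists of partners (grey). Filled points did not overlap between the groups, open points did, and vertical bars mark list medians; *Grin2d* at 0.40 and *Camk2d* at 0.41 are the points farthest from 0.

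The genes whose levels followed the subunits most closely over the 4 samples were found by the root mean square difference of their centred log2(RPKM + 1). For *Grin2d*, of 7841 genes within 1 log2 unit of its mean level, 34 lay within 0.05, and the closest were *Kl* at 0.0038, *Ciao2b* at 0.0077 and *Arpc1b* at 0.012. *Kl*, which encodes klotho, was at 4.87 and 5.14 RPKM in WT and at 7.05 and 6.72 RPKM in KI. For *Grin1*, of 1420 genes of like level, 373 lay within 0.05, and the closest were *Dgkz* at 0.0082, *Eif4b* at 0.0099 and *Snn* at 0.011. With 4 samples such likeness is a description of 4 values per gene.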

How the data were processed

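RNA was measured in the hippocampus of 2 WT and 2 *Lsd1* KI mice. Poly(A) libraries were prepared with the Illumina TruSeq kit and sequenced as read pairs, and GSNAP served to align them to mm10, with CASAVA also named. Pairs with a unique and proper alignment were kept. The authors deposited RPKM per gene in 1 file per sample, and a gene with no reads is not listed and was taken as 0. The counter and its strand setting were not given in the sources used here.

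The mapped reads of each sample (8827967 to 14949756), the reads of each gene and its counted exon length were worked out from the fractions between samples. All 26328 genes gave whole reads in every sample at a relative tolerance of 1e-13. Intervals from these reads cover counting error only. The counted length equalled that of GENCODE M21 (GRCm38), the source of coordinates, in 60.1% of genes.

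limma (version 3.58.1, R version 4.3.3) with a mean-variance trend was run on log2(RPKM + 1), for the 18436 genes that reached 0.5 RPKM in 2 or more samples, and the fold changes on this scale understate those of low genes. limma with voom on the reads was an alternative. Shares and ratios were compared with exact permutation tests over samples in Python 3.11.15 (scipy 1.17.1). Alternatives were the pseudocount, filter, trend, scaling, fold, replicate block and each sample left out. The named genes were all 7 subunits, the highest and lowest fold change of each partner list, the 3 genes most like *Grin1* and *Grin2d* in pattern, defining markers and *Kdm1a*. Genes called by voom were named after their values were seen, and some marker genes are not reported here by name. The subunits, lists and rules were chosen with earlier results of these data known.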

Additional observations from a re-analysis of the deposited data

How the results depend on the processing

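Of 18436 genes tested, the number past the threshold was 0 with limma on log2(RPKM + 1), with 1161 higher and 613 lower in KI at an unadjusted p under 0.05. It was 1 with at least 10 reads in every sample, 50 with the replicate block and this minimum, and 20 with no mean-variance trend. It was 277 with voom, 446 with voom and the block, 277 with voom and at least 10 reads, and 95 with voom at 1.5-fold. Leaving out 1 sample gave 0 to 878 genes, where voom gave 1 without WT replicate 1, 2 without WT replicate 2, 478 without KI replicate 1 and 878 without KI replicate 2. Of the subunits, 0 were past the threshold, and 1 (*Grin2d*) was with voom, with voom and the block and with voom and at least 10 reads; without 1 sample the number was 0 to 1. Same-numbered samples had a correlation of -0.02 of their deviations from the group means, so the numbers are not taken to pair them; the replicate block alone called 0 subunits and 0 genes.

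The log2 fold change of *Grin2a*, 0.00, turned to -0.049 with quantile normalization, -0.0027 with median-ratio scaling, -0.0059 with voom and with voom at 1.5-fold, -0.010 with voom and the block and -0.0056 with voom and at least 10 reads, and without 1 sample it was -0.057 to 0.064 by limma and -0.11 to 0.092 by voom (-0.051 without WT replicate 2). That of *Grin3b*, -0.03, turned to 0.029 by limma and 0.058 by voom without WT replicate 1, and without 1 sample it was -0.081 to 0.029 and -0.20 to 0.058. The other 5 subunits kept their direction in all 21 settings. By limma on log RPKM, the settings of filter, trend, block and fold minimum cannot move the fold change. The causes of the turns in sign of *Grin2a* and *Grin3b* were not tested. The least deeply sequenced sample, WT replicate 2, held 18 reads of *Grin3b* and, as the smallest whole number, 68 of *Grin2a*. This limits what could be seen for both.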
